A study of Mus musculus with 6 samples.

Results

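Dentate granule neurons are the principal excitatory cells of the dentate gyrus, the gate through which cortical input enters the hippocampus. They receive the perforant path, send mossy fibres to CA3 and hilar cells, fire sparsely, and keep the transcription factor Prox1 through life. Here they were studied in single nuclei from frozen hippocampi of aged mice, given as 18 to 20 months old, in 6 libraries. In 3 libraries the mice had breathed 2% sevoflurane, a volatile anaesthetic, with 60% oxygen at 1 L/min for 6 h, and in the other 3 they had breathed 60% oxygen alone at the same flow for 6 h. No genotype, strain or number of animals per library is given in the labels. The tests below therefore weigh differences against library-to-library spread, which may be technical.

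The nuclei were chosen by their own counts. A barcode was selected on at least 500 unique molecular identifiers (UMIs), at most 5% mitochondrial UMIs, at least 1 UMI in at least 4 of the 7 genes Prox1, Glis3, C1ql2, Dsp, Stxbp6, Rfx3 and Sema5a, and at most 1 UMI in Gad1 and Gad2 together. Nuclei with 2 or more of the activity genes Fosb, Arc, Inhba and Atf3 were left out. This took 9943 of the 53824 deposited barcodes, or 18.7% of the 53294 that passed the depth and mitochondrial limits. The 13 genes of the rule received no test. Of the chosen nuclei, 29.4% held exactly 4 of the 7 genes, 41.3% held 5, 24.8% held 6 and 4.52% held 7. Just outside the rule, 5303 nuclei held 3 of the 7 genes, with Trpc6 at 37.5 CPM and Maml2 at 378 CPM. Just inside it, the 2927 nuclei with 4 genes had 173 and 856 CPM.

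The labelled sex and the sex-linked genes did not match in 3 libraries. Sevoflurane replicate 1, labelled male, had 1926 CPM (counts scaled to a common library size) of Xist, the RNA that silences an X chromosome in females, and 0.2 CPM of 4 Y-linked genes together. The other 5 libraries had at most 1.2 CPM of Xist and 351 to 388 CPM of the Y-linked genes, including sevoflurane replicate 3 and oxygen replicate 3, both labelled female. The female pattern was therefore seen in 1 sevoflurane library and no oxygen library, and main counts are also given without it. Between libraries, 11 pairs of chosen nuclei shared a barcode, and 0 of these pairs held identical counts.

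Granule genes outside the rule were high in the chosen nuclei. Maml2, a Notch coactivator, stood at 1286 CPM against 289 CPM in all other nuclei, and Dock10, a guanine nucleotide exchange factor, at 887 against 273 CPM. The cation channel gene Trpc6 stood at 256 against 61.0 CPM, Calb1, which encodes the calcium buffer calbindin, at 120 against 51.4 CPM, and Plk5 at 35.2 against 6.23 CPM. Not every chosen nucleus carried this profile. When the chosen nuclei were clustered among themselves, 2146 of them (21.6%) fell in subclusters where at least 3 markers of another cell type stood out. These subclusters held 47.4% of the nuclei with 4 rule genes, 12.5% of those with 5, 8.45% of those with 6 and 7.80% of those with 7. Without them, 7797 nuclei remained, in which Trpc6 stood at 308 CPM and the oligodendrocyte gene Mog at 5.53 instead of 21.6 CPM. Total counts of calls, and part of the list counts and single-gene values, are therefore also given for these 7797 nuclei, a set defined after the data had been seen. The subclusters kept were uneven between libraries. In 1 of them, with Prr16 and Cyp7b1 among its leading genes, sevoflurane replicates 1 to 3 had 23, 24 and 16 nuclei. Oxygen replicates 1 to 3 had 98, 460 and 203. Another had 369, 504 and 307 against 76, 121 and 103. In a further subcluster 412 of 518 nuclei were from sevoflurane replicate 1. The part of this unevenness in the results was not tested.

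Summed markers of granule neurons and of several other cell types differed between the groups. The 7 marker genes of the rule summed to 3343 to 3712 CPM in the sevoflurane libraries and 3868 to 4353 CPM in the oxygen libraries. Of these, Glis3, Stxbp6 and Rfx3 were lower in all sevoflurane libraries, and Prox1, C1ql2 and Sema5a overlapped. Dsp was higher (57.6 to 65.1 against 52.9 to 56.9 CPM). The 10 granule markers outside the rule summed to 3017 to 3055 against 3197 to 3413 CPM. Among them Dock10, Trpc6, Plk5, Npnt and Bcl11b were lower in all sevoflurane libraries, while Maml2, Calb1, Tdo2, Neurod1 and Slc17a7 overlapped. The rule thus selected on genes whose sum differed between the groups, and the effect of this on the selection was not tested. In the chosen nuclei the summed level of 6 astrocyte markers was 402 to 615 CPM in the sevoflurane libraries and 640 to 760 CPM in the oxygen libraries. That of 6 oligodendrocyte markers was 694 to 782 against 816 to 975 CPM. The 4 choroid plexus markers summed to 23.2 to 24.7 CPM after sevoflurane and 93.2 to 505 CPM with oxygen, mostly through Ttr, which encodes transthyretin (1.66, 2.11 and 1.83 CPM against 151, 70.2 and 471 CPM). In the 7797 nuclei the choroid plexus sum was still 23.2 to 25.95 against 84.8 to 410 CPM. Astrocyte markers there were 238 to 292 against 291 to 333 CPM, and oligodendrocyte markers overlapped (504 to 611 against 523 to 579 CPM). Microglial markers (69.9 to 75.0 against 81.5 to 102 CPM) and pericyte markers (8.72 to 34.6 against 40.5 to 44.6 CPM) were lower after sevoflurane as well. So were those of CA1 (98.6 to 117 against 121 to 141 CPM) and CA3 neurons (613 to 718 against 762 to 798 CPM). In the 7797 nuclei the CA1 sum was higher after sevoflurane (61.7 to 64.8 against 57.7 to 60.7 CPM). Most of the CA3 sum came from Cpne4 and Grik4, at 267 and 396 CPM in the chosen nuclei and 267 and 409 CPM in other excitatory neurons. The CA3 marker Iyd was higher after sevoflurane (6.96 to 7.86 against 2.76 to 3.12 CPM). Ependymal markers (19.4 to 25.4 against 15.1 to 15.5 CPM) were higher, while endothelial and inhibitory neuron markers overlapped. No marker of any list was at 0 in all libraries. The part of these markers in the results below was not tested beyond that second set.

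The share of dentate granule neurons among nuclei overlapped between the groups. It was 20.0%, 19.7% and 17.2% of the nuclei in sevoflurane replicates 1 to 3 and 13.4%, 23.5% and 17.1% in oxygen replicates 1 to 3. The 95% Wilson intervals, which cover counting error only, ran from 12.6 to 14.1% in oxygen replicate 1 and from 22.7 to 24.4% in oxygen replicate 2. The means were 19.0% ± 1.55 and 18.0% ± 5.14 (SD, n = 3), a difference of 0.947 percentage points (two-sided exact permutation p = 0.8, smallest possible p = 0.1). Without oxygen replicate 1 the difference was -1.38 percentage points. Median depth was 6333, 6393 and 7689 UMIs per nucleus after sevoflurane and 7494, 7304 and 6803 with oxygen (exact permutation p = 0.4). The median number of genes was 2888 to 3234 in both groups together (exact permutation p = 0.9).

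Gene levels were compared on counts summed over the granule nuclei of each library, which held 9613047 to 17562497 UMIs. After sevoflurane, 135 genes were higher and 316 lower of the 16694 tested (edgeR quasi-likelihood test, Benjamini-Hochberg adjusted p under 0.05), which is 0.809% and 1.89% of the genes tested. The groups' libraries did not overlap for any of the 451 called genes, and they did not overlap for 23.8% of all tested genes. With the gene-length correction described below the split was 145 higher and 140 lower. Without the other-type subclusters, 195 genes were higher and 469 lower, or 1.28% and 3.07% of 15279 tested, and 358 of the 451 calls were made again in the same direction. Without sevoflurane replicate 1, the library with the female pattern, 103 were higher and 291 lower. Leaving out sevoflurane replicate 2 gave 225 calls, and leaving out oxygen replicates 1, 2 or 3 gave 101, 176 and 195.

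The gene with the clearest rise was Gm2087 (ENSMUSG00000099718), an antisense gene at mm10 chromosome 9, 83431547 to 83454573, plus strand. It stood at 40.5, 37.1 and 43.0 CPM in sevoflurane replicates 1 to 3 and at 12.3, 13.8 and 11.7 CPM in oxygen replicates 1 to 3. Every sevoflurane library stood far above every oxygen library, with a log2 fold change of 1.66 (SE 0.10, edgeR adjusted p = 0.00044). It overlaps Lca5 (83390293 to 83441127, minus strand), which encodes the ciliary protein lebercilin. Lca5 rose too, from 36.3, 39.1 and 47.5 CPM with oxygen to 72.5, 70.6 and 67.4 CPM after sevoflurane (log2 0.78, SE 0.10, adjusted p = 0.00649). Strand use in the counting is not given in the sources used here, so reads of the overlapping stretch could not be assigned to either gene with certainty. With each nucleus thinned to 3000 UMIs, Gm2087 was seen in 11.3% of granule nuclei after sevoflurane and 3.83% with oxygen, and in 2.26% and 1.40% of oligodendrocyte-marker nuclei. Before thinning the granule shares were 23.8% and 8.82%.

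Several other rises were of genes known from cilia, sperm or meiosis. Catspere2, of the sperm calcium channel complex, went from 39.7, 43.0 and 41.7 CPM with oxygen to 87.2, 65.8 and 70.1 CPM after sevoflurane (log2 0.84, SE 0.11, edgeR adjusted p = 0.00649). Klhl10, a ubiquitin ligase adaptor needed for sperm formation, rose by 0.92 on the log2 scale, and the meiotic helicase gene Hfm1 by 0.77. Of 104 tested genes in a list of cilium and sperm genes picked by symbol, 5 rose and 0 fell (Catspere2, Klhl10, Hfm1, Iqck and Spag6). The list was chosen with earlier results of these data known, so its count is a description and not independent support. Rises made up 0.809% of all genes tested. The list's median log2 fold change was 0.13, beside 0.01 over all genes tested. Markers of ependymal cells, which are ciliated, moved the same way: the 4 markers summed to 19.4 to 25.4 CPM after sevoflurane and 15.1 to 15.5 CPM with oxygen. Without the other-type subclusters that sum overlapped (6.16 to 11.7 against 6.47 to 6.65 CPM), and 8 of 85 tested genes of the list rose, these 5 among them, and 1 fell.

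The largest rise by size was of the mucin gene Muc3a. It was low, at 2.37, 3.00 and 3.15 CPM with oxygen and 14.8, 7.04 and 9.55 CPM after sevoflurane (log2 1.87, SE 0.29, edgeR adjusted p = 0.0148). Cacng5, an auxiliary subunit of AMPA receptors and also a CA2 marker, rose from 4.95, 5.41 and 8.08 to 14.6, 14.9 and 11.4 CPM (log2 1.16, SE 0.20). The summed level of 5 CA2 markers, Cacng5 among them, was 151 to 171 CPM after sevoflurane and 118 to 139 CPM with oxygen. Most of this sum was Pcp4 (108 to 128 against 88.3 to 107 CPM). Map3k15 was higher too, Rgs14 overlapped, and Amigo2 was lower (2.50 to 2.67 against 2.95 to 3.74 CPM). The part of CA2 nuclei in the rise of Cacng5 was not tested. The signalling regulators Rgs9 (0.77) and Rgs22 (0.99) and the exchange factor Arhgef33 (1.01) rose as well, as did Cstad (1.41), Oacyl (1.34) and Ttc38 (0.87). Most of the Rgs22 level came from the other-type subclusters. Without them Rgs22 went from 1.70, 2.32 and 2.28 CPM with oxygen to 4.69, 4.55 and 3.81 CPM after sevoflurane. In nuclei with at least 5 of the 7 rule genes Rgs22 was not called (edgeR adjusted p = 0.0776). All 12 of the largest rises were also called without the other-type subclusters, and all 12 with the gene-length correction described below. Among abundant genes the rises were small. Upp2, a uridine phosphorylase, went from 271 to 285 CPM with oxygen to 337 to 381 CPM after sevoflurane (log2 0.36), and Icam5, a dendritic adhesion protein, from 146 to 158 to 188 to 200 CPM (log2 0.36).

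**Figure D1:**
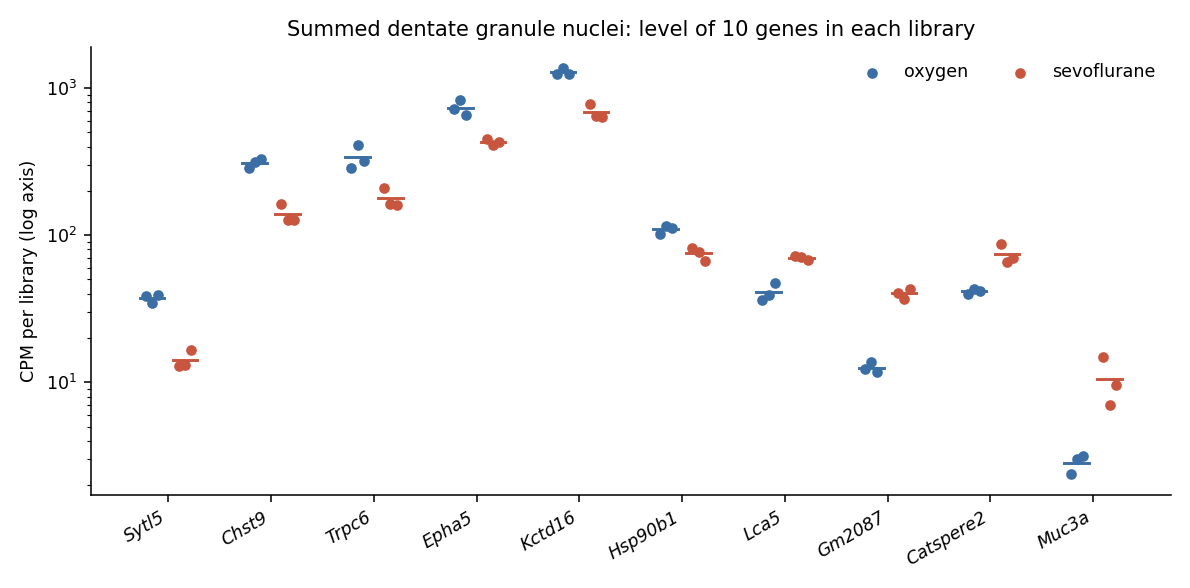
Level of 10 genes in dentate granule nuclei, in CPM on a log axis, with 1 point per library (3 oxygen, 3 sevoflurane) and a line at each group's mean. Sytl5, Chst9, Trpc6, Epha5, Kctd16 and Hsp90b1 were lower in all sevoflurane libraries, and Lca5, Gm2087, Catspere2 and Muc3a higher.

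Several falls were of genes abundant in granule neurons. Chst9, a sulfotransferase that modifies N-glycans, fell from 288, 316 and 331 CPM with oxygen to 163, 126 and 126 CPM after sevoflurane (log2 -1.17, SE 0.11, edgeR adjusted p = 0.00249). All sevoflurane libraries lay far below all oxygen libraries. After thinning to 3000 UMIs, Chst9 was seen in 28.1% ± 3.28 of nuclei after sevoflurane and 46.2% ± 3.95 with oxygen (SD, n = 3, exact permutation p = 0.1, the smallest possible), and in 2.80% and 6.04% of oligodendrocyte-marker nuclei. Chst9 was outside the genes planned for this measure. Its CPM ratio was similar in nuclei with 4, 5, 6 and 7 rule genes, at -1.01, -1.07, -1.10 and -1.21 on the log2 scale.

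Trpc6 fell from 284, 408 and 320 CPM to 210, 164 and 160 CPM (log2 -0.92, SE 0.16, edgeR adjusted p = 0.0345). Sevoflurane replicate 1 was the highest of its group, and the call was kept in 2 of the 6 fits that each left out a library. Epha5, a receptor for ephrin-A ligands, fell from 716, 827 and 654 to 452, 411 and 428 CPM (log2 -0.77, SE 0.09, adjusted p = 0.00459). Kctd16, an auxiliary subunit of GABA-B receptors, fell from 1251, 1374 and 1241 to 784, 647 and 636 CPM (log2 -0.90, SE 0.09, adjusted p = 0.00249). Cyp7b1, an oxysterol hydroxylase, fell from 379, 459 and 438 to 232, 275 and 236 CPM (log2 -0.78). Without the other-type subclusters these 4 genes and Chst9 stood at -1.02, -0.96, -1.04, -0.87 and -1.24 and were all called. Epha5, Kctd16 and Cyp7b1 were called in each of the 6 fits that left out a library.

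Of 32 genes for glycan sulfation and its removal, 4 fell (Sulf1, Chst9, Ndst4 and Chst11) and 1 rose, the lysosomal sulfatase gene Arsg (log2 0.59). Over all genes tested, 1.89% fell and 0.809% rose. Of these 4 falls, Chst9 alone was called without the other-type subclusters, and it alone was called with the gene-length correction described below. In all, 3 of 31 tested genes of the list fell and 1 rose without those subclusters. Arsg stood at 1.24 without the other-type subclusters, with log2 ratios of -0.16, 0.97, 1.25 and 1.58 in nuclei with 4, 5, 6 and 7 rule genes. After thinning, Arsg was seen in 4.80% and 3.30% of granule nuclei and in 20.5% and 16.4% of oligodendrocyte-marker nuclei, after sevoflurane and with oxygen.

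Sytl5, an effector of Rab27 in vesicle traffic, fell from 38.4, 34.8 and 39.3 CPM to 12.98, 13.2 and 16.6 CPM (log2 -1.39, SE 0.12, edgeR adjusted p = 0.00211). Sav1, the scaffold of the Hippo kinases, fell from 27.0, 36.3 and 25.8 to 13.4, 11.8 and 12.9 CPM (log2 -1.24, SE 0.14, adjusted p = 0.00459). Of 10 synaptotagmin-like Rab effector genes, Sytl5 alone was called, while 2 of 9 fell without the other-type subclusters. The changes of Sytl5 and Sav1 were both larger than the spread between libraries. Both were called in all 6 fits that left out a library. After thinning, Sav1 was seen in 3.84% and 8.06% of granule nuclei and in 6.09% and 18.2% of oligodendrocyte-marker nuclei, after sevoflurane and with oxygen. The shares for Sytl5 were 3.77% and 8.71% of granule nuclei and 3.68% and 6.95% of oligodendrocyte-marker nuclei. Both genes were thus seen less often after sevoflurane in oligodendrocyte-marker nuclei as well. Free RNA was not measured, and its part in these shares was not tested.

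Other large falls were not called without the other-type subclusters. Enpp2, which makes lysophosphatidic acid and is abundant in choroid plexus, fell from 154, 77.4 and 150 CPM with oxygen to 36.4, 30.04 and 37.2 CPM (log2 -1.88, SE 0.30, edgeR adjusted p = 0.0488). Without the other-type subclusters it stood at -1.18 (adjusted p = 0.122). Rgs20 stood at -1.25 in all chosen nuclei and at -0.43 without those subclusters (adjusted p = 0.47). Its log2 ratio was -1.34 in nuclei with 4 rule genes and -0.19 in those with 7. Calls also ended for Sulf1, Vat1l, Sntb1, Slc7a11 and Gulp1, and Ninj2 was then too low to test. Of the 12 largest falls, 4 were called without those subclusters, namely Sytl5, Sav1, Prlr and Prr16.

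**Figure D2:**
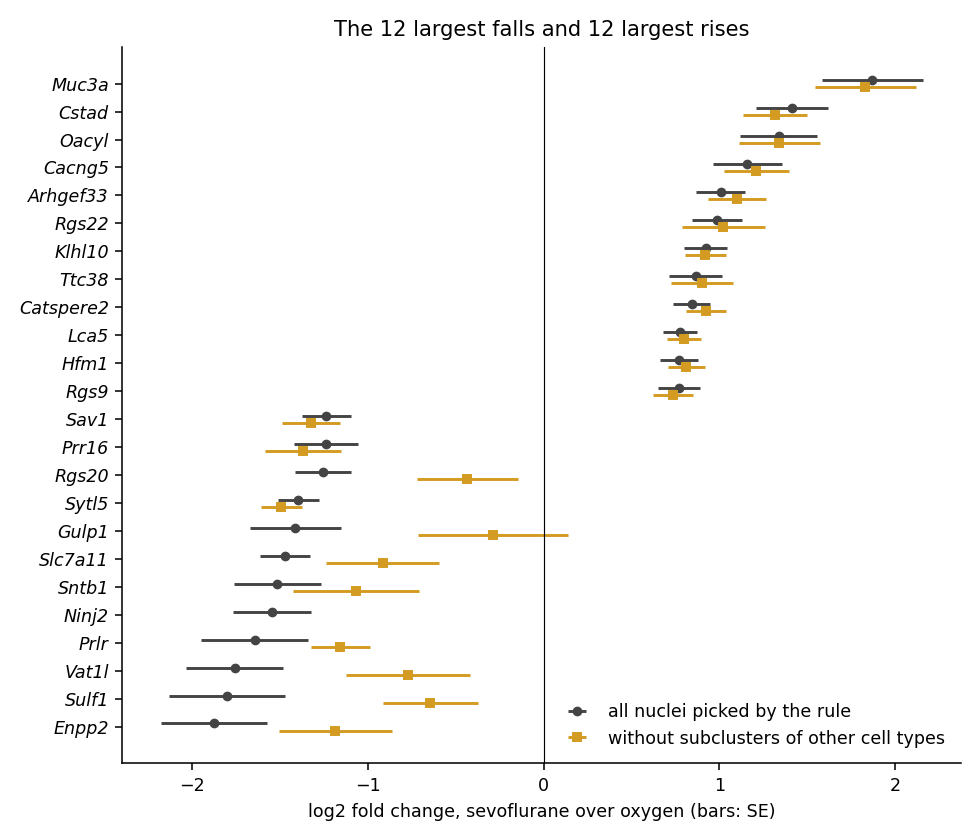
Log2 fold change, sevoflurane over oxygen, of the 12 largest falls and 12 largest rises in all nuclei chosen by the rule (circles) and without subclusters of other cell types (squares), with bars for the SE. The rises differ little between both sets, while Rgs20 and Gulp1 move from -1.25 and -1.41 to -0.43 and -0.29.

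Falls were concentrated in long genes. The median span, from gene start to gene end with introns, was 215 kb for genes that fell, 39.3 kb for genes that rose and 24.5 kb for genes tested. Of 579 tested genes over 300 kb, 93 fell and 2 rose. Of 4249 genes up to 10 kb, 11 fell and 11 rose. The median log2 fold change ran from 0.09 in genes up to 10 kb to -0.20 in genes over 300 kb. Each sevoflurane library had a negative median in the longest genes. In genes up to 10 kb, sevoflurane replicate 3 stood at -0.02, while replicates 1 and 2 stood at 0.13 and 0.09. With a correction for this trend in each library, 145 genes were higher and 140 lower, or 0.869% and 0.839% of the genes tested. Of the original calls, 110 rises and 130 falls were called again in the same direction.

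**Figure D3:**
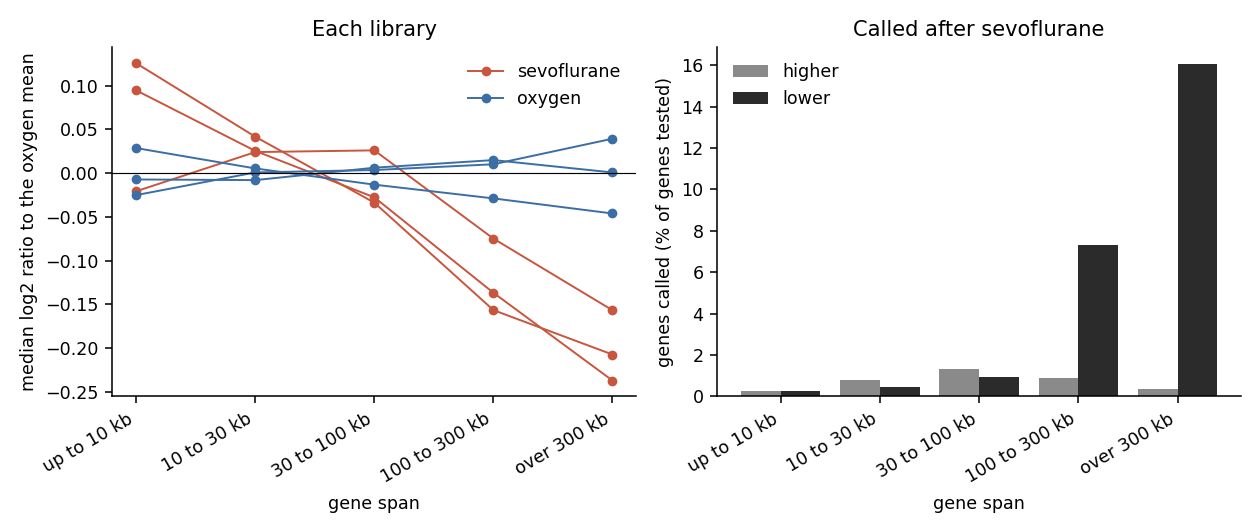
Left, median log2 ratio of each library to the oxygen mean in 5 classes of gene span, with 1 line per library. Right, percent of tested genes called higher or lower after sevoflurane in each class. In genes over 300 kb the 3 sevoflurane libraries lie at -0.16 to -0.24, and 16.1% of genes were called lower.

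Of 33 tested adhesion genes (cadherins, contactins, neurexins and partners), 9 fell and 0 rose, with a median log2 fold change of -0.33. Over all genes tested, 1.89% fell. The median span of the list was 415264 bases, and 16.1% of all tested genes over 300 kb fell. Cdh20, a cadherin, fell from 97.9, 85.5 and 72.5 to 39.1, 40.5 and 40.2 CPM (log2 -1.09, SE 0.10, edgeR adjusted p = 0.00249). Most of this level came from the other-type subclusters. Without them Cdh20 went from 14.3, 12.5 and 12.4 CPM with oxygen to 7.29, 4.83 and 7.25 CPM after sevoflurane (log2 -1.01, edgeR adjusted p = 0.0103). Lrrtm3, a postsynaptic neurexin partner, fell from 221, 201 and 196 to 115, 114 and 104 CPM (log2 -0.89, SE 0.07). With the length correction 6 of the 33 fell and 1 rose, and Cdh20 and Lrrtm3 were still called. Of 30 axon guidance genes 6 fell and 0 rose (Epha5, Ntng1, Efna5, Epha3, Unc5c and Slit3), and 2 fell with the correction. The median span of these 30 genes was 298888 bases, and 7.31% of all tested genes of 100 to 300 kb fell. Without the other-type subclusters 10 adhesion genes and 10 of 29 axon guidance genes fell.

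Lists of receptors and channels, among them those through which anaesthetics are known to act, gave falls in some lists and no call in others. Over all genes tested, 1.89% fell and 0.809% rose. Of tested genes of 100 to 300 kb 7.31% fell, and of those over 300 kb 16.1%. Median spans were 178597 bases for the synaptic GABA-A, 396298 for the metabotropic glutamate receptor and 221673 for the voltage-gated potassium channel list. Of 12 synaptic GABA-A receptor and anchor genes 1 fell, Gabrb2, from 413, 445 and 421 to 318, 333 and 314 CPM (log2 -0.41, edgeR adjusted p = 0.0109). With the length correction it stood at -0.26 (adjusted p = 0.0646). None of 6 extrasynaptic GABA-A and glycine receptor genes was called, and of 8 K2P potassium channel genes 1 fell, Kcnk13 (log2 -0.49), which stood at -0.41 without the other-type subclusters (adjusted p = 0.101). Of 6 NMDA receptor genes 1 fell (Grin2a, -0.27), of 7 metabotropic glutamate receptor genes 3 fell (Grm3, Grm5 and Grm7), and of 23 voltage-gated potassium channel genes 3 fell (Kcnh1, Kcnd3 and Kcnq3). Grm3, which astrocytes also express, went from -0.60 to 0.05 without the other-type subclusters. None of 22 voltage-gated sodium and calcium channel genes was called, while 5 fell in the set without those subclusters. In that set 3 of the 12 synaptic GABA-A and 3 of the 6 NMDA receptor genes fell, and 0 rose. Of 34 vesicle release genes 4 fell (Syt1, Erc1, Cadps2 and Stxbp5l), and of 16 AMPA receptor genes Cacng5 rose and Shisa9 fell. With the length correction 0 of the 34 vesicle release genes fell and 1 rose, and 1 of the 23 potassium channel genes fell (Kcnh1). The abundant falls in Celf2, Cadm2, Opcml, Grm7 and Grin2a ranged from -0.27 to -0.32, and each lost its call with the length correction.

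Some genes for folding in the endoplasmic reticulum fell. The endoplasmic reticulum folds secreted and membrane proteins with chaperones such as Hsp90b1 (Grp94) and its partners, and Xbp1 is a transcription factor of the unfolded protein response, which raises them. Of 32 genes for folding in the endoplasmic reticulum and cytosol, 6 fell and 0 rose, beside 1.89% of falls over all genes tested. Their median log2 fold change was -0.15, with 12 of the 32 above 0. Hsp90b1 went from 102, 116 and 111 CPM with oxygen to 81.3, 76.9 and 67.1 CPM after sevoflurane (log2 -0.55, SE 0.08, edgeR adjusted p = 0.0132). Xbp1 went from 28.0, 25.4 and 27.0 to 19.2, 16.0 and 14.7 CPM (log2 -0.68, SE 0.11, adjusted p = 0.0174). Every sevoflurane library was below every oxygen library for both genes.

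The co-chaperone genes Dnajb11 (log2 -0.54) and Dnajc3 (log2 -0.41) fell, as did the disulfide isomerase genes Pdia3 (-0.40) and Pdia4 (-0.79). Hspa5, the chaperone BiP, stood at 56.1, 55.0 and 64.9 CPM with oxygen and 43.9, 43.7 and 32.0 CPM after sevoflurane (log2 -0.56, edgeR adjusted p = 0.0579). It was called without the other-type subclusters (adjusted p = 0.0391) and with the length correction (adjusted p = 0.0235), and 7 of the 32 genes fell in either case. None of these 7 genes was called in all 6 fits that left out a library, and Hspa5 in none. Outside the list, Sil1, a nucleotide exchange factor of BiP, rose from 67.2, 68.8 and 76.5 to 95.9, 91.3 and 94.9 CPM (log2 0.41, SE 0.07, adjusted p = 0.0174).

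Promoters of 3 of these chaperone genes are shown because they carry the endoplasmic reticulum stress element, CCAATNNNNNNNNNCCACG, in capitals, on either strand. The RefSeq windows of 300 bases around the gene start (GRCm38.p6, the mm10 build) are printed 5′ to 3′ on the gene's strand. Hspa5 lies on the plus strand (chr2:34771840-34772139), Hsp90b1 on the minus strand (chr10:86705395-86705694) and Dnajc3 on the plus strand (chr14:118937682-118937981).
Hspa5: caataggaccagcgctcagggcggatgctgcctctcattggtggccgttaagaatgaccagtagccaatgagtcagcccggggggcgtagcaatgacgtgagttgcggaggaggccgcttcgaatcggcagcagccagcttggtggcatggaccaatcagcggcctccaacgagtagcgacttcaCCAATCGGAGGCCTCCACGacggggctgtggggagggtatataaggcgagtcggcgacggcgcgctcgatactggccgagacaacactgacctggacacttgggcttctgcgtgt
Hsp90b1: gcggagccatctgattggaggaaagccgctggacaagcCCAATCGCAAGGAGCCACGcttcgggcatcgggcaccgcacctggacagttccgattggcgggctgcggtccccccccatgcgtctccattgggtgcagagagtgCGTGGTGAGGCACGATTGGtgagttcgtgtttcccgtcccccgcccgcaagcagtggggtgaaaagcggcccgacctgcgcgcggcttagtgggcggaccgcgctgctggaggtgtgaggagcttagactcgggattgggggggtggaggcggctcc
Dnajc3: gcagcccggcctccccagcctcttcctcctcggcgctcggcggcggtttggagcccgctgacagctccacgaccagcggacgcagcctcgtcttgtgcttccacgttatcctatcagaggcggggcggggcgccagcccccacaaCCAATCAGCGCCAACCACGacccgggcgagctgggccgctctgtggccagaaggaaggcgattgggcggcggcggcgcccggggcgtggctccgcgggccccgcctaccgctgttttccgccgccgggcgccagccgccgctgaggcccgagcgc
Hsp90b1 holds the element at bases 39 to 57 and, reversed, at bases 144 to 162. Of 26 folding genes with a window, 7 held it, beside 39 of all 32851 windows (0.119%). The other 4 were Calr, Canx, Pdia6 and Creld2, at log2 fold changes of -0.15, -0.24, -0.44 and -0.29, and none of these was called. Pdia3, Pdia4, Xbp1 and Dnajb11 fell without a match in their windows. A match is a description of letters and not a measured binding site.

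Of 36 activity-induced genes, 2 rose and 0 fell, beside 0.809% of rises over all genes tested, and 30 of the 36 were above 0, at a median of 0.22. They were Sik1, a salt-inducible kinase (3.44, 2.10 and 3.45 CPM with oxygen, 7.86, 9.22 and 5.82 CPM after sevoflurane, log2 1.38, edgeR adjusted p = 0.0226), and the matrix proteoglycan gene Acan (log2 1.21). Since nuclei with 2 of 4 activity genes had been left out, this list describes only the nuclei that stayed. Without that condition the fit made 468 calls in all. Of 16 glucocorticoid response genes, Nr3c2, the mineralocorticoid receptor, fell (log2 -0.59). It was called in 1 of the 6 fits that left out a library. With the length correction it stood at -0.41 (edgeR adjusted p = 0.184). Without the other-type subclusters 2 of 15 tested genes of this list rose and 2 fell. Of 19 Hippo pathway genes, Sav1, Yap1 and Tead1 fell, beside 1.89% of falls over all genes tested. Yap1 was not called without the other-type subclusters (adjusted p = 0.152), nor Tead1 with the length correction (adjusted p = 0.0895). None of the tested genes was called for clock (19), cholesterol synthesis (23), mossy fibre transmitters (12), methylthioadenosine and polyamine metabolism (19), p53 targets (13), hypoxia (26), neurogenesis (12), VEGF (9), neuregulins (7), adenosine (8), the poles of the dentate gyrus (6), the nuclear respiratory chain (78) or ribosomal proteins (78). Without the other-type subclusters 1 clock and 1 ribosomal protein gene rose, and 1 p53 target, 1 VEGF and 1 neuregulin list gene fell. In all chosen nuclei the median of the ribosomal protein genes was 0.24 and that of the 78 respiratory chain genes was 0.19. In each of these lists 75 of 78 were above 0. Both lists are of short genes, with median spans of 3266 and 7370 bases. The median log2 fold change was 0.09 over all tested genes up to 10 kb. With the length correction the list medians were 0.15 and 0.13.

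The response was compared with that of other neurons of the same libraries. CA1-marker neurons (3996 nuclei with at least 3 of 6 CA1 genes and at most 1 of the 7 granule genes) were taken as 1 set. The difference of the responses was called for 29 of 14740 genes, 5 higher and 24 lower in granule neurons (limma on log2 CPM differences within each library, Benjamini-Hochberg adjusted p under 0.05), which is 0.0339% and 0.163%. Against all other excitatory neurons (11384 nuclei with Slc17a7), 41 were higher and 107 lower, or 0.253% and 0.661% of 16195 genes. The latter count was 16 and 32 without the other-type subclusters. Without oxygen replicate 1, 3 genes differed from CA1-marker neurons, so that comparison leans on this library.

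Some genes had a lower fold change in granule than in CA1-marker neurons. Kctd16 stood at -0.90 in granule and -0.16 in CA1-marker neurons (difference -0.75, SE 0.11, limma adjusted p = 0.0348), and Epha5 at -0.76 and -0.18 (difference -0.58, SE 0.07, adjusted p = 0.00421). Gpc4, a cell-surface heparan sulfate proteoglycan, stood at -0.49 and 0.31 (difference -0.80, SE 0.10, adjusted p = 0.00274). Chst9 stood at -1.17 and -0.70 (difference -0.47, adjusted p = 0.0416). Pex5l, a trafficking partner of HCN channels, stood at -0.37 and 0.04 (adjusted p = 0.0295, and 0.1 without the other-type subclusters). Gabra2, a GABA-A receptor subunit, stood at -0.35 and -0.01 (adjusted p = 0.0416), and was not called as a fall in granule neurons alone (edgeR adjusted p = 0.0803).

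Other genes had a larger positive fold change in CA1-marker than in granule neurons. Bdnf, a neurotrophin, had a log2 fold change of -0.02 in granule and 0.62 in CA1-marker neurons (difference -0.64, SE 0.11, limma adjusted p = 0.0277). The nuclear receptor gene Nr4a2 stood at 0.16 and 0.75 (difference -0.59, adjusted p = 0.0416) and Tiparp, an ADP-ribosyltransferase, at 0.28 and 1.25 (difference -0.97, adjusted p = 0.0416). The condition on activity genes had been applied to granule nuclei alone. With it applied to both sets, Bdnf was still called (adjusted p = 0.0408), while Nr4a2 (adjusted p = 0.342), Tiparp (0.0541), Kctd16 (0.0603) and Gabra2 (0.0649) were not, and 20 genes differed in all.

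In the opposite direction, Gm2087 stood at 1.67 in granule and 0.52 in CA1-marker neurons (difference 1.14, SE 0.17, limma adjusted p = 0.0129). Sntg2, a syntrophin, stood at 0.20 and -0.73, and Kcnn3, a calcium-activated potassium channel, at 0.27 and -0.35. The 6 folding genes that fell, and Hspa5, showed no called difference. Hsp90b1 stood at -0.55 and -0.43 (adjusted p = 0.718) and Dnajc3 at -0.41 and -0.39 (adjusted p = 0.972). Nor did Sav1, at -1.20 and -1.28 (adjusted p = 0.907). This does not show that the responses were equal.

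**Figure D4:**
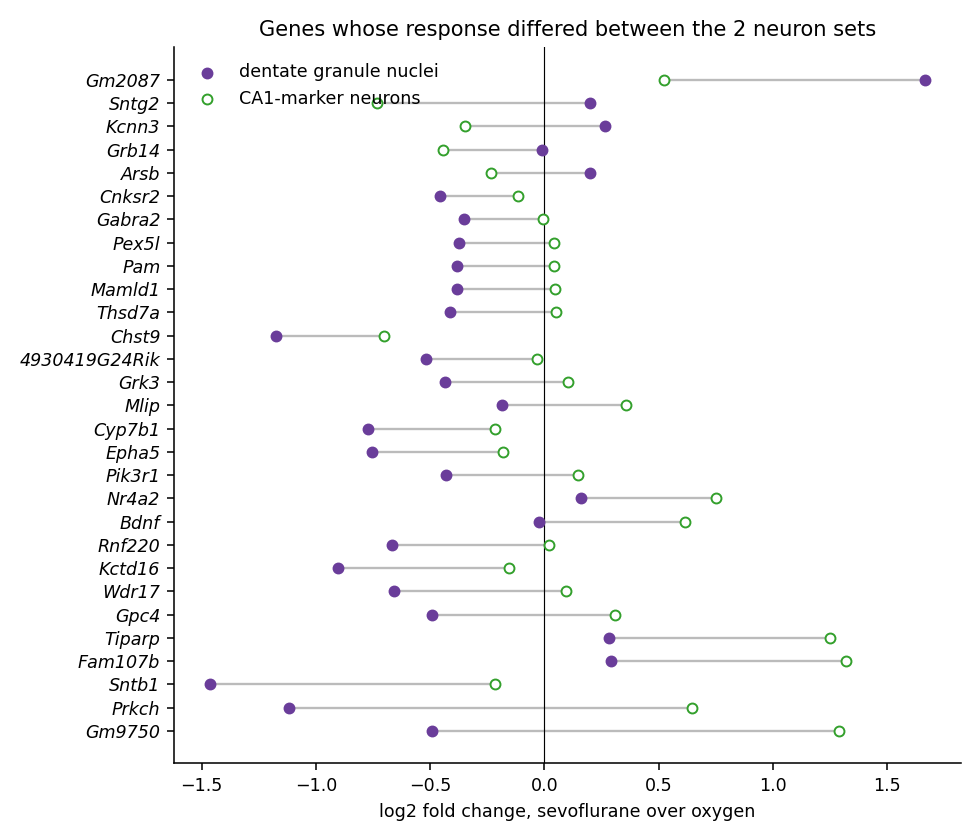
Log2 fold change, sevoflurane over oxygen, in dentate granule nuclei (filled) and CA1-marker neurons (open) for the 29 genes whose response differed, ordered by the difference. Gm2087 stands at 1.67 and 0.52, and Bdnf at -0.02 and 0.62.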

How the data were processed

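Single-nucleus libraries were made from frozen hippocampi with a droplet kit for the 3' ends of transcripts and read in pairs of 150 bp, per the labels' protocols. Reads went through fastp and Cell Ranger 7.1.0 with mm10, per the submitters' processing notes. The authors deposited raw counts (UMIs per gene and barcode), 56334621 to 72636984 per library. Whether introns were counted, by which strand and with which annotation is not given in the sources used here. Of 32285 genes, 32158 were matched to GENCODE M21 for positions.

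The nuclei and the 33 gene lists were chosen with earlier results of these data known. Counts of the chosen nuclei were summed per library and compared with edgeR 4.0.16 in R 4.3.3 (quasi-likelihood, robust, TMM, filterByExpr, treatment as the only term). CPM of summed libraries use the TMM-scaled library sizes. SEs were derived from the F statistic as |log2 fold change|/√F. Response differences used limma 3.58.1 (trend, robust, prior count 2). The length correction is an offset per library from a lowess curve (fraction 0.3) over log gene span. Subclusters came from scanpy 1.11.5 (2000 variable genes, 30 components, 20 neighbours, Leiden resolution 1) and count as other-type where at least 3 markers of another type reach 10 CPM and 2 times their level in the other subclusters. Doublets stayed in. An alternative removed 459 nuclei by a Scrublet threshold of 0.319, the median of the 6 automatic ones (0.654 in oxygen replicate 1). For shares of nuclei with a UMI, nuclei under 3000 UMIs were left out (52 to 134 per library), also among oligodendrocyte-marker nuclei (387 to 813 left out and 63 to 172 kept per library).

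Named were the 12 largest rises and falls and the 8 most abundant of each, among called genes with at least 10 CPM in 1 group, no overlap between groups and a symbol that is not a predicted model. Added were up to 4 called members per list and the 6 largest response differences in each direction. Spag6, Unc5c, Slit3, Cyp7b1, Pdia3, Pdia4, Hspa5, Bdnf, Nr4a2 and Gabra2 were chosen after their values were seen, and so were the genes with a promoter match. The limit to nuclei outside other-type subclusters and the activity condition on both sets were also added after the data had been seen. A few genes that the rule names are not reported here, and neither are the lists that depend on them. The fits were tested on simulated data. Alternatives were DESeq2 1.42.0, other scaling, filters, rule thresholds, thinning to 2000 UMIs, a replicate block and each library left out.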

Additional observations from a re-analysis of the deposited data

Results flagged for a closer look

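Genes are listed here because their response to sevoflurane differed between granule neurons and other neurons by limma at an adjusted p under 0.05. Values are log2 differences, granule minus other. Against CA1-marker neurons they were -1.25 for Sntb1, -1.03 for Fam107b, -0.97 for Tiparp, -0.80 for Gpc4, -0.75 for Wdr17 and -0.75 for Kctd16, and 1.14 for Gm2087, 0.93 for Sntg2, 0.62 for Kcnn3, 0.43 for Grb14 and 0.43 for Arsb.

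Against other excitatory neurons they were -1.28 for 4930511M06Rik, -1.27 for Vat1l, -1.17 for Ninj2, -1.09 for Abtb2, -1.01 for Creb5 and -0.9997 for Pld1, and 1.16 for Gm2087, 0.94 for Oacyl, 0.76 for Lca5, 0.74 for Sntg2, 0.74 for Kcnn3 and 0.73 for Ocln. The 6 higher values were also called without the subclusters of other cell types. Of the 6 lower ones, Ninj2 was then too low to test and the other 5 were not called. Wdr17 and Sntb1 were not called against CA1-marker neurons either in that set.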

How the results depend on the processing

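The count of 451 called genes was 756 with DESeq2, 715 with no low-count filter, 285 with the length offset (145 higher, 140 lower), 276 with at least 3 of 7 marker genes and 101 to 394 with 1 library left out. Without the other-type subclusters it was 664, and 193 to 662 with 1 library left out as well. The other settings gave 305 to 552 calls. Replicate numbers did not pair the libraries: deviations of same-numbered libraries correlated at -0.08, -0.02 and -0.01. With a replicate block 115 genes were called, 362 without the other-type subclusters, and for response differences 190 against other excitatory and 109 against CA1-marker neurons. Response differences numbered 148 against other excitatory neurons, 48 without the other-type subclusters and 63 to 185 with 1 library left out. Against CA1-marker neurons they numbered 29, and 3 to 55 with 1 library left out. Of 74 named genes, 60 were called without the other-type subclusters, 47 with the length offset and 63 without sevoflurane replicate 1. The log2 fold change of Grm3 turned to 0.053 without those subclusters, 0.211 with the length offset there and 0.064 with the replicate block there. With a library left out it ranged from -0.714 in all chosen nuclei to 0.226 without those subclusters, where 4 of 6 values were above 0. The share of dentate granule neurons among nuclei turned to -0.612 percentage points with at least 3 of 7 marker genes, and ranged from -1.38 to 3.71 with a library left out. Without thinning, shares of nuclei with a UMI turned for Grm5 (1.14 percentage points) and Kcnq3 (0.248). With 3 libraries a group, an exact test cannot go below p = 0.1. The cause of these changes was not tested.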
